A study of Mus musculus with 4 samples.

Results

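The mitochondrial ribosomal protein genes were taken as every gene in the expression tables whose symbol starts with Mrpl or Mrps, followed by a number and at most 1 letter from a to c. The rule found 77 of the 24411 genes listed, of which 48 carry the L of the large ribosomal subunit and 29 the S of the small subunit. All 77 passed the filter on low counts, which left 13585 genes for testing. No measured value entered the choice of these genes.

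Mitochondria carry their own ribosome, which translates the few proteins encoded by mitochondrial DNA, nearly all of them membrane subunits of the respiratory chain and of ATP synthase. Its RNAs come from the mitochondrial genome, whereas all of its proteins are encoded in the nucleus, made in the cytosol and imported. The small subunit reads the messenger RNA, the large subunit forms the peptide bond, and many mitochondrial ribosomal proteins have a bacterial counterpart while others exist only in mitochondria. The cleavage-stage embryo is known to divide with mitochondria inherited from the oocyte.

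Embryos of ICR mice, a stock bred for genetic diversity, received either siRNA against Pwp1 (siPwp1, 2 libraries) or a control siRNA (siControl, 2 libraries). The embryos of both groups came from in vitro fertilization, were electroporated at 3 hours post insemination (hpi) while still zygotes, and grew to the morula stage at 72 hpi in KSOM, a culture medium for embryos, to which bovine serum albumin was added. Each library was made from the polyadenylated RNA of 10 embryos with a SMART-Seq v4 PLUS kit, so a value is an average over 10 pooled embryos and all their cell types. Nothing in the sources ties a replicate to its own culture, so a p-value here sets a difference against the spread between these 4 libraries, which may be technical.

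The expected counts summed to 48765229 and 30356988 in siPwp1 replicates 1 and 2, and to 28981358 and 44985949 in siControl replicates 1 and 2. Pwp1, the targeted gene, stood at 36.9 and 37.2 CPM (the count scaled to library size) in the siPwp1 libraries, against 215.4 and 364.9 CPM in the siControl libraries. Its adjusted p was 0.22 with edgeR and 1.47e-12 with DESeq2, and its libraries did not overlap between the groups. Of the 11 markers of the morula and early lineages, Dppa3 led at 19572 to 25306 TPM (the transcript level scaled to transcript length and library size) over the 4 libraries, and all 11 were above 0 in every library. Markers of cumulus and granulosa cells, which surround the oocyte, summed to 0.04 to 0.2 TPM over 8 genes, with Cyp19a1 and Ptx3 at 0 in all libraries. Markers of sperm summed to 0 to 2.62 TPM over 4 genes. The 8 blood and immune genes summed to 145.5 and 154.2 TPM in siPwp1 and to 38.6 and 117.0 TPM in siControl, most of it from the globin gene Hba-a2, while Hbb-bs, Hbb-bt and Tyrobp were at 0 throughout. The 5 markers of the 2-cell stage summed to 150.6 and 173.8 TPM in siPwp1 and to 13.2 and 100.5 TPM in siControl. Gm5662 was the highest of the 5 in every library and overlapped between groups. It had 107.5 and 84.7 TPM in siPwp1, against 6.38 and 92.3 TPM in siControl. The other 4 (Zscan4d, Tcstv3, Zfp352 and Usp17lc) did not overlap and lay higher in siPwp1, with log2 fold changes of 2.76 to 3.88 and edgeR adjusted p of 0.56 to 0.9998. Whether any of these differences bears on the mitochondrial ribosomal protein genes was not tested.

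Promoter windows of 300 bases, reaching from 250 bases before to 50 bases after the transcription start, were read from RefSeq on GRCm38.p6 for the 68 genes with an entry. The 5 shown are those that the results below turn on. Mrpl46 (chr7:78783040-78783339, minus strand) and Mrps11 (chr7:78782881-78783180, plus strand) lie head to head. Mrpl22 (chr11:58171414-58171713, plus strand) and Mrpl33 (chr5:31613701-31614000, plus strand) were the most abundant genes of the family. Mrps36 (chr13:100744610-100744909, minus strand) was the gene that differed most between replicates. Each is written 5′ to 3′ on the strand of its gene, and capitals mark the ETS core CCGGAAG, the NRF1 sequence GCGCATGC, the YY1 core AAGATGGC and the CRE TGACGTCA on either strand.
Mrpl46: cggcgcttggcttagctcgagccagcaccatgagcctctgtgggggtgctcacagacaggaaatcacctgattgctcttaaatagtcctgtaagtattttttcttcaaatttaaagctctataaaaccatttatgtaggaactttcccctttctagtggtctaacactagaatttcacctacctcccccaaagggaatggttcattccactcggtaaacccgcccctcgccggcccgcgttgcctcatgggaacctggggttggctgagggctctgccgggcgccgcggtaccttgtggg
Mrps11: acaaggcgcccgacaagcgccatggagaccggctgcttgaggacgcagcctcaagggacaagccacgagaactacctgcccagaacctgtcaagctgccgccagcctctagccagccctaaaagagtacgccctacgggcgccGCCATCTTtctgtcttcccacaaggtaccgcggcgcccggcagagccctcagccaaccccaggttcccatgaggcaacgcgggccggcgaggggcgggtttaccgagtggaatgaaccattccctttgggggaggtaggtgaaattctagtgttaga
Mrpl22: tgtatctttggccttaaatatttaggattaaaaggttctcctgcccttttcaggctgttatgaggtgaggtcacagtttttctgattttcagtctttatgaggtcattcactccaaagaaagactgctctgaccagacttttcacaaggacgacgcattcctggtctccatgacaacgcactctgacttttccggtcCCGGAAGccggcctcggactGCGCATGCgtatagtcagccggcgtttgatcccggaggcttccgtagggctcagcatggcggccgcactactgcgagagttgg
Mrpl33: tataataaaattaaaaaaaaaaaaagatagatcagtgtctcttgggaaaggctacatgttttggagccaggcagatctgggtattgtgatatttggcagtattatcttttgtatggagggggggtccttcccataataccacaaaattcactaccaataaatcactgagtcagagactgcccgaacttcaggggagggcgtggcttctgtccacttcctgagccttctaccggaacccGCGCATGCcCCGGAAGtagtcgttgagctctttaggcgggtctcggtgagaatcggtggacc
Mrps36: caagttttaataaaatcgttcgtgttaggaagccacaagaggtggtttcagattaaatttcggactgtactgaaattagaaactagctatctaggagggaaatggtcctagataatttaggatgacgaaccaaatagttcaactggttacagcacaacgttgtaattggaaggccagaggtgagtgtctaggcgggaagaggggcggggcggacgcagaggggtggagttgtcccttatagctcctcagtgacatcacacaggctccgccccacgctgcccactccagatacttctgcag
Mrpl22 and Mrpl33 each held an ETS core and an NRF1 sequence on the strand of the gene. Mrps11 held a YY1 core on the other strand, and neither Mrpl46 nor Mrps36 held any of these 4 motifs in the window. The windows of Mrpl46 and Mrps11 shared 141 bases, because their RefSeq starts are 42 bases apart on opposite strands.

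These motifs belong to factors known to bind upstream of many nuclear genes for mitochondrial proteins. The ETS core was present in 25 of the 68 windows (36.8%), against 19.2% of the windows of 10314 tested genes and 9.93% of all 27025 genes in the table. The NRF1 sequence was present in 8 of the 68 windows (11.8%), against 6.02% of tested genes and 3.05% of all genes. The YY1 core was present in 12 of the 68 windows (17.6%), against 5.11% and 3.19%. The other motifs were no more frequent than among tested genes: the CRE was in 2.94% of the windows against 3.64%, the SP1 box GGGCGG in 34 of 68 against 66.3%, and the TATA box TATAAA in 7.35% against 9.18%. These shares are descriptions of the sequence, searched on both strands, and a match is not a measured binding site. No motif searched contains another.

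All 77 genes were expressed in every library, and most of them well above the level of the typical gene. The smallest expected count of the family was 1203 and 430 in the siPwp1 libraries, both of Mrps36, and 882 and 612 in the siControl libraries, of Mrps5 and Mrps36. The lowest gene in TPM was Mrpl19 in all 4 libraries, and its TPM lay above that of 81.8% to 84.6% of all genes listed. TPM divides counts by the effective transcript length, so levels of different genes are compared in TPM here. The median gene of the family stood at 156.9 and 139.2 TPM in siPwp1, against 150.7 and 149.3 TPM in siControl. Mean TPM over the 4 libraries spanned 106.3-fold, with 59 genes between 50 and 500 TPM, 7 above 500 and 11 below 50. The 5 most abundant genes held 28.4% of the summed TPM of the family. The order of the genes was nearly the same in all libraries, with Spearman's rho of TPM between any pair of libraries from 0.963 to 0.981 across the 77 genes, which are not independent replicates.

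**Figure D1:**
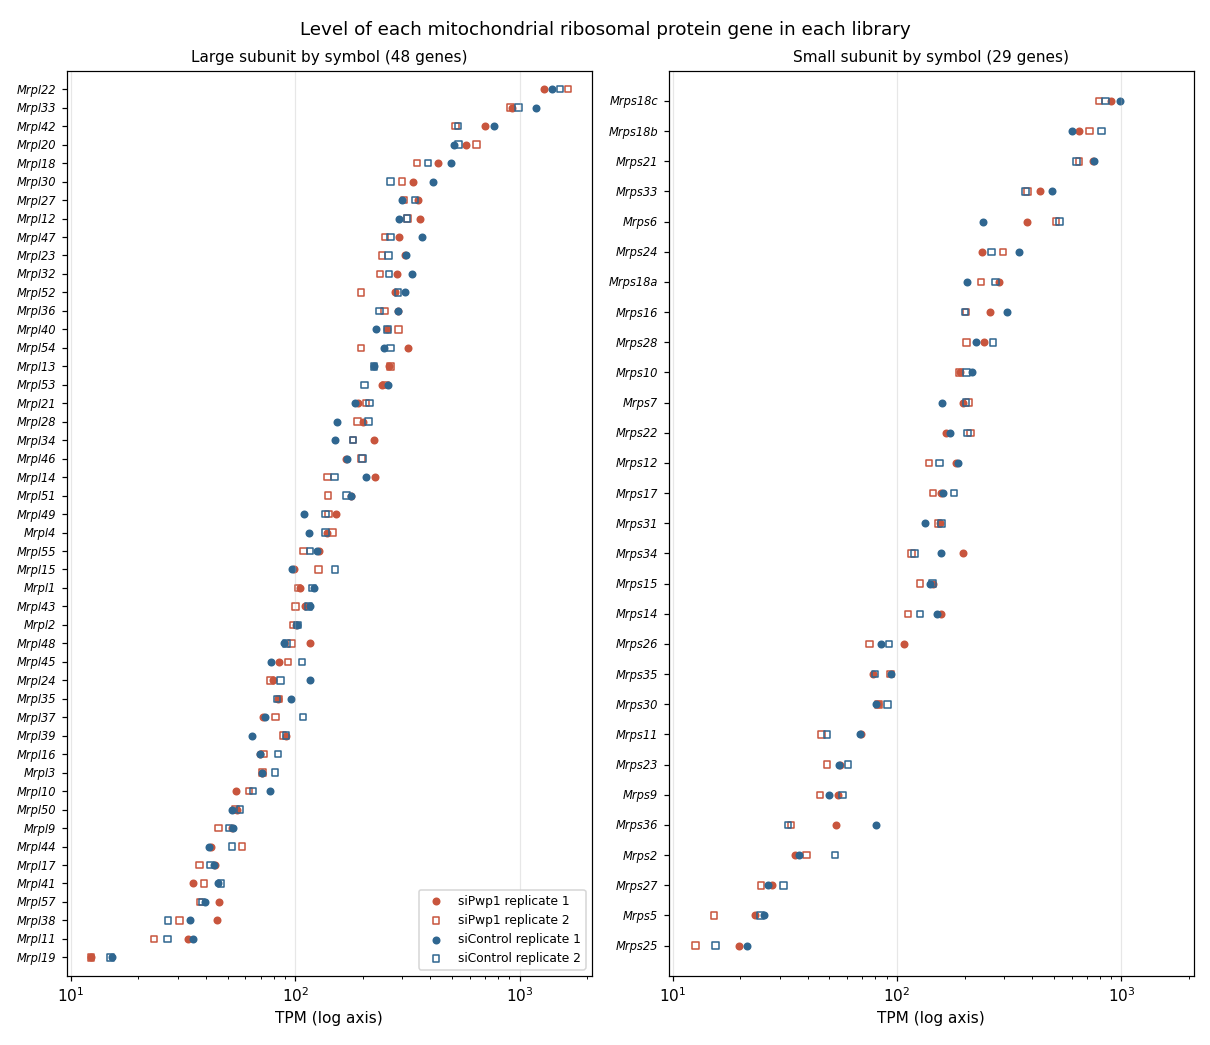
TPM on a log axis of each of the 77 genes in the 4 libraries, large subunit genes on the left and small subunit genes on the right, ordered by mean TPM. Red marks siPwp1 and blue siControl, filled circles are replicate 1 and open squares replicate 2. The genes run from 12.3 TPM for Mrpl19 to 1640 TPM for Mrpl22, and for most genes the 4 libraries lie close together compared with that range.

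Among large subunit genes, Mrpl22, whose bacterial counterpart lines the tunnel through which the new peptide leaves, had 1286 and 1640 TPM in siPwp1, against 1398 and 1509 TPM in siControl. Mrpl33, kin of a small bacterial ribosomal protein, had 923 and 911 TPM in siPwp1, against 1185 and 986 TPM in siControl. Mrpl22 was higher than Mrpl33 in each library. Mrpl42, a protein found only in mitochondrial ribosomes, had 702 and 517 TPM in siPwp1, against 770 and 532 TPM in siControl. Mrpl20, whose bacterial kin acts early in large subunit assembly, had 576 and 641 TPM in siPwp1, against 512 and 533 TPM in siControl. Mrpl42 and Mrpl20 changed places between libraries, so their order did not hold beyond the spread. Mrpl18, kin of the bacterial protein that binds 5S ribosomal RNA, had 433 and 349 TPM in siPwp1, against 492 and 391 TPM in siControl.

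At the low end of the large subunit, Mrpl19 had 12.3 and 12.3 TPM in siPwp1, against 15.3 and 15.0 TPM in siControl. It was the lowest member of the family in all 4 libraries. Mrpl11, whose kin forms the base of the stalk where translation factors dock, had 33.3 and 23.5 TPM in siPwp1, against 34.9 and 27.0 TPM in siControl. Mrpl38, a protein found only in mitochondria, had 45.0 and 30.5 TPM in siPwp1, against 34.0 and 27.1 TPM in siControl. Mrpl41 and Mrpl57, both also mitochondrial proteins without bacterial kin, ranged from 35.2 to 46.6 TPM over the 4 libraries. The stalk protein Mrpl12, which recruits translation factors, stood far above Mrpl11 at 360 and 317 TPM in siPwp1, against 291 and 315 TPM in siControl. Mrpl10, which anchors Mrpl12 in the stalk, had 54.2 and 62.2 TPM in siPwp1, against 77.3 and 64.9 TPM in siControl. Transcripts for proteins that sit side by side in the stalk thus differed several-fold in level in every library.

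Among small subunit genes the 3 paralogs of a single bacterial protein, Mrps18a, Mrps18b and Mrps18c, all ranked high. Mrps18c had 897 and 796 TPM in siPwp1, against 984 and 851 TPM in siControl. Mrps18b had 648 and 722 TPM in siPwp1, against 603 and 815 TPM in siControl. Mrps18a, which despite its name sits in the large subunit, had 285 and 237 TPM in siPwp1, against 205 and 274 TPM in siControl. Mrps18c exceeded Mrps18b, and Mrps18b exceeded Mrps18a, in each of the 4 libraries. Mrps21, a small protein with bacterial kin, had 747 and 648 TPM in siPwp1, against 755 and 632 TPM in siControl, a range that overlapped that of Mrps18b. Mrps33, found only in mitochondria, had 432 and 381 TPM in siPwp1, against 490 and 374 TPM in siControl. Mrps6, kin of a bacterial small subunit protein, was uneven, with 380 and 510 TPM in siPwp1, against 243 and 531 TPM in siControl.

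The lowest small subunit gene was Mrps25, a mitochondrial protein, with 19.7 and 12.6 TPM in siPwp1, against 21.6 and 15.6 TPM in siControl. Mrps5, whose bacterial kin helps keep decoding accurate, had 23.2 and 15.3 TPM in siPwp1, against 25.7 and 24.7 TPM in siControl. Mrps27, an RNA-binding protein of the pentatricopeptide family, had 27.8 and 24.7 TPM in siPwp1, against 26.7 and 31.2 TPM in siControl. These 3 genes stood below 32 TPM in every library, at levels that overlapped between neighbours. Mrps2, with bacterial kin, had 35.0 and 39.5 TPM in siPwp1, against 36.4 and 52.8 TPM in siControl. Mrps36, now known as a subunit of the 2-oxoglutarate dehydrogenase complex rather than of the ribosome, had 53.5 and 33.6 TPM in siPwp1, against 80.6 and 32.7 TPM in siControl. Mrps30, another protein named for the small subunit that sits in the large, was steady at 82.6 and 82.8 TPM in siPwp1, against 80.3 and 90.7 TPM in siControl.

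Genes with long transcripts had the lower levels. Across the 77 genes, Spearman's rho between mean TPM and mean effective length was -0.74, against -0.38 across the 13585 genes tested. Effective length ranged from 152.9 bases for Mrps21 to 6448 bases for Mrpl17, with a median of 781.6 bases, against 2393 bases over all genes tested. Length enters the calculation of TPM, so the 2 measures are not independent.

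As a whole the family took 1.69% and 1.60% of all TPM in the siPwp1 libraries, against 1.71% and 1.66% in the siControl libraries. The difference of the log2 share, siPwp1 minus siControl, was -0.03, and the exact two-sided permutation test gave p = 0.667, where 2 libraries against 2 allow no p below 0.333. Large subunit genes held 1.06% and 1.01% of TPM in siPwp1, against 1.09% and 1.03% in siControl. Small subunit genes held 0.629% and 0.592% in siPwp1, against 0.626% and 0.629% in siControl. In these pooled libraries, fewer cells of a type and less RNA per cell cannot be told apart.

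The ratio of summed small subunit TPM to summed large subunit TPM was 0.594 and 0.586 in siPwp1, against 0.578 and 0.612 in siControl. The siPwp1 values lay inside the range of the siControl values, with a log2 difference of -0.01 and an exact permutation p of 1.0. With Mrps18a and Mrps30 counted in the large subunit, where they sit, and Mrps36 left out, the ratio was 0.535 and 0.534 in siPwp1, against 0.530 and 0.553 in siControl. The log2 share of the small subunit counted this way was -7.413 and -7.49 in siPwp1, against -7.406 and -7.407 in siControl. These shares did not overlap between groups, with an exact permutation p of 0.333, the lowest that test allows. The cytosolic ribosome, represented by 83 genes, took 22.0% and 20.1% of TPM in siPwp1, against 21.7% and 19.2% in siControl. The mitochondrial family thus amounted to 0.0768 and 0.0796 of the cytosolic sum in siPwp1, against 0.0789 and 0.0862 in siControl, a log2 difference of -0.08 with an exact permutation p of 0.667.

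**Figure D2:**
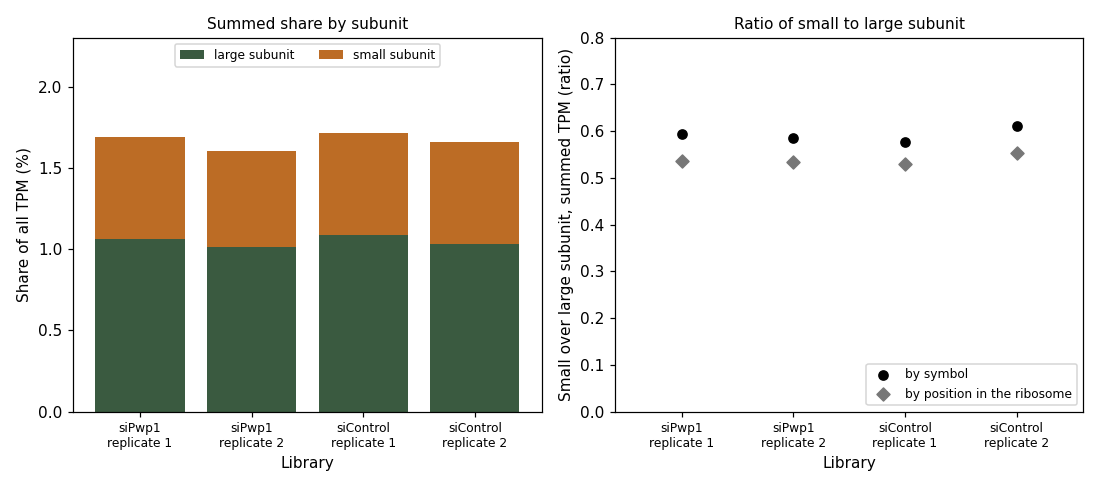
Left, share of all TPM in percent taken by large and small subunit genes in each library, as stacked bars from 0. Right, ratio of summed small to summed large subunit TPM in each library, with subunits taken from the symbol (circles) or from the position of the protein in the ribosome (diamonds). The stacked shares run from 1.60% to 1.71%, and the ratio by symbol from 0.578 to 0.612, with no separation of siPwp1 from siControl libraries.

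The comparison of siPwp1 with siControl asks whether transcripts of the family differed in morulae in which Pwp1 was targeted. None of the 77 genes passed an adjusted p of 0.05 in edgeR's quasi-likelihood test in either direction, and the background was likewise 0% of 13585 genes higher and 0% lower. DESeq2 and limma also called 0 of the 77. The DESeq2 counts over all genes are given in the last section, and none are given here for limma. At an unadjusted p under 0.05 the family again had 0 genes, against 1.84% of all genes tested on the higher side and 0.824% on the lower side. Log2 fold changes ran from -0.43 for Mrps36 to 0.28 for Mrpl38. The median was -0.09 over the family, -0.08 over large subunit genes and -0.11 over small subunit genes, against -0.001 over all genes tested. Below 0 were 56 genes and above 0 were 21. These medians moved in both directions as single libraries were left out. Leaving out siPwp1 replicate 1 gave -0.206 for the family, -0.137 for the large subunit and -0.27 for the small subunit. Leaving out siPwp1 replicate 2 gave 0.005, 0.036 and 0.003 in that order. Leaving out siControl replicate 1 gave -0.002, -0.004 and -0.002, and leaving out siControl replicate 2 gave -0.14, -0.094 and -0.161.

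These differences were estimated more precisely than those of most genes. The median standard error (SE) was 0.264 log2 units in the family, against 0.462 over all genes tested. The 95% interval of the log2 fold change lay within a 2-fold change either way for 69 of the 77 genes (89.6%), against 25.8% of all genes tested. Cytosolic ribosomal protein genes had a smaller median SE, 0.243, and 97.6% of their intervals lay within that limit. The part of abundance in this precision was not tested. The widest reach was that of Mrps36, down to -1.68, and of Mrpl38, up to 1.10. Each of the 77 intervals held 0, and a p above the threshold does not show that the groups were alike.

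**Figure D3:**
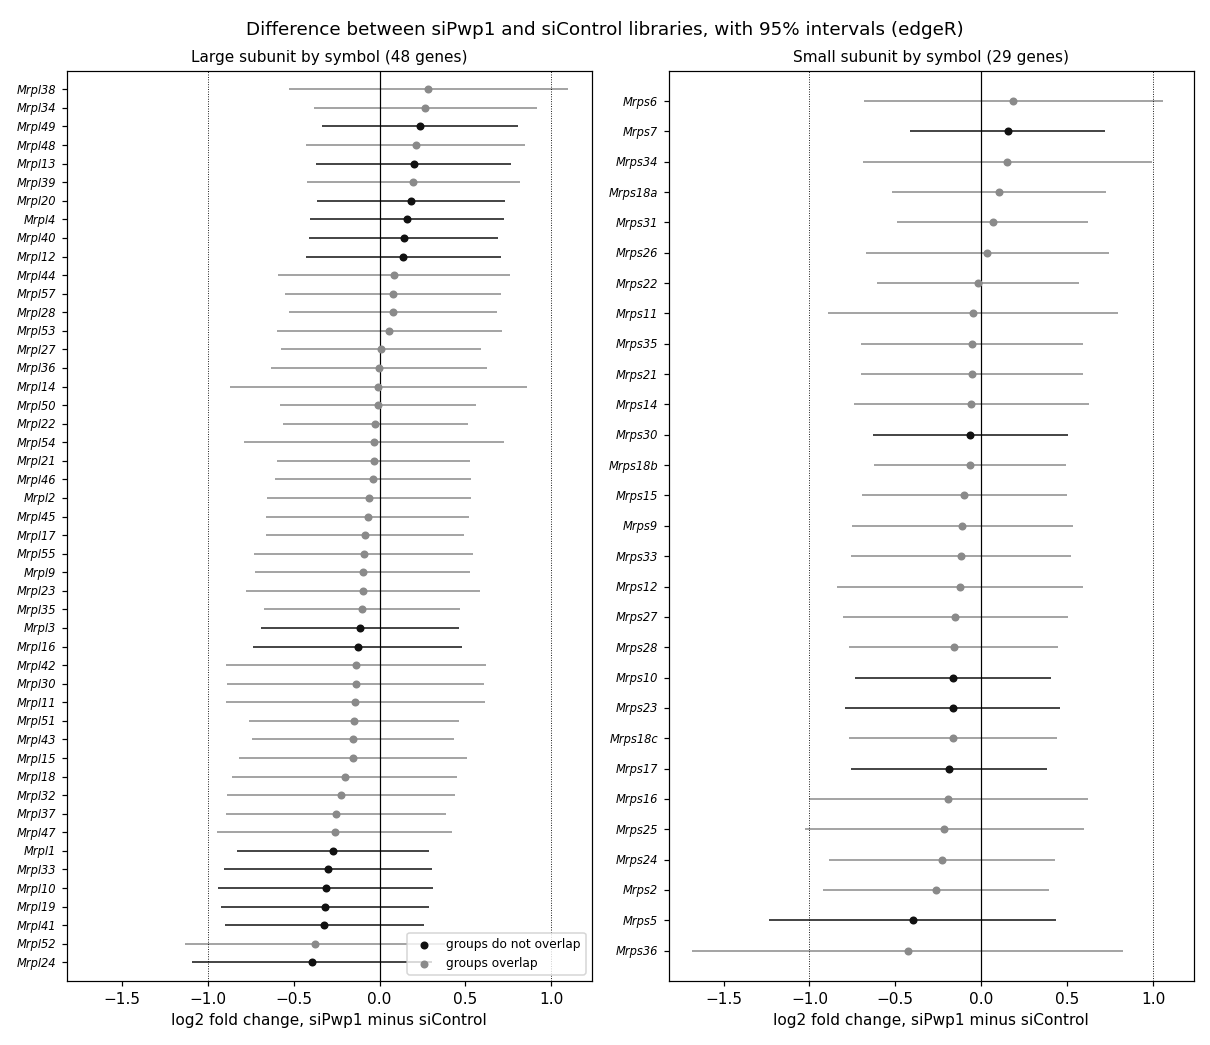
Log2 fold change, siPwp1 minus siControl, of each gene with its 95% interval from edgeR, large subunit genes on the left and small subunit genes on the right. Black genes are those whose libraries do not overlap between groups in CPM, grey genes those that overlap, and dotted lines mark a 2-fold change. Every interval crosses 0, and the point estimates run from -0.43 to 0.28.

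Libraries of the groups did not overlap for 7 genes on the higher side (9.09%, background 14.7%) and 13 on the lower side (16.9%, background 14.1%). These counts, made in CPM scaled by TMM, were near or below the background. On the higher side stood 6 large subunit genes and 1 small subunit gene. Mrpl49, a mitochondrial protein of the large subunit, had 218.3 and 194.3 CPM in siPwp1, against 162.5 and 187.9 CPM in siControl, with a log2 fold change of 0.24 (SE 0.241, edgeR adjusted p = 0.9998). Its siControl replicate 2 came close to the lower siPwp1 library. Mrpl13 had 134.5 and 130.8 CPM in siPwp1, against 120.6 and 110.3 CPM in siControl. Mrpl20 had 228.0 and 242.0 CPM in siPwp1, against 211.6 and 202.3 CPM in siControl. Mrpl4, Mrpl40, Mrpl12 and, from the small subunit, Mrps7 had log2 fold changes of 0.14 to 0.16. Mrpl4, Mrpl13 and Mrps7 have bacterial kin, while Mrpl40 does not.

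On the lower side stood 8 large and 5 small subunit genes. Mrpl24, whose bacterial kin lies at the exit of the peptide tunnel, had 54.0 and 50.1 CPM in siPwp1, against 81.2 and 55.7 CPM in siControl, with a log2 fold change of -0.39 (SE 0.295, edgeR adjusted p = 0.9998). Only siControl replicate 1 lay far from the other libraries. Mrpl41 showed the more even pattern, with 75.0 and 80.4 CPM in siPwp1, against 99.3 and 94.9 CPM in siControl, and a log2 fold change of -0.32. Mrpl19 likewise had 57.3 and 55.6 CPM in siPwp1, against 73.7 and 66.9 CPM in siControl, with a log2 fold change of -0.32. For both genes the gap between groups was wider than the gap within either group, but neither passed the test (unadjusted p = 0.231 and 0.255). Mrpl10 had 75.9 and 83.8 CPM in siPwp1, against 111.7 and 86.8 CPM in siControl. Mrpl33 had 188.4 and 176.1 CPM in siPwp1, against 255.1 and 193.8 CPM in siControl. In both, as in Mrpl24, siControl replicate 1 was the high library. The expected counts of Mrpl24, Mrpl41 and Mrpl19 were not whole numbers in every library. The part of reads shared with other genes in their differences was not tested.

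Of the small subunit genes on the lower side, Mrps5 had the largest difference, with 26.9 and 17.0 CPM in siPwp1, against 30.6 and 27.2 CPM in siControl, a log2 fold change of -0.40 (SE 0.352). Here siPwp1 replicate 2 was the low library. Mrps17, Mrps10 and Mrps23 had log2 fold changes of -0.19, -0.17 and -0.17, and Mrps30 one of -0.06. Mrps17 and Mrps10 have bacterial kin, and Mrps23 is found only in mitochondria. Of the 20 genes separate in CPM, the 6 genes Mrps7, Mrps23, Mrps30, Mrpl3, Mrpl16 and Mrpl40 overlapped between groups in TPM. None of Mrps18a, Mrps18b and Mrps18c was separate, with log2 fold changes of 0.10, -0.07 and -0.17.

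In the family, as over all genes tested, the replicate numbers differed more, on the median, than the groups did. With group kept in the model, replicate 2 differed from replicate 1 by a median absolute log2 difference of 0.209 over the 77 genes, against 0.140 for siPwp1 and siControl. The same 2 values were 0.452 and 0.299 over all genes tested, and 0.282 and 0.098 over cytosolic ribosomal protein genes. Over all genes tested edgeR called 533 genes higher in replicate 2 (3.92%) and 272 lower (2%). Of the family it called 0 higher and 1 lower, Mrps36. At an unadjusted p under 0.05 stood 2 genes higher, against a background of 12.1%, and 17 genes lower, which is to be read against a background of 9.68%. Libraries of the 2 replicate numbers did not overlap for 10 genes on the higher side, against a background of 24.7%, and for 33 genes on the lower side (42.9%), against a background of 25.7%. The median log2 difference, replicate 2 minus replicate 1, was -0.13 over the family, -0.14 over large and -0.13 over small subunit genes, against -0.02 over all genes tested. The replicate difference went with effective length across the 77 genes, with Spearman's rho of 0.36, against -0.007 over all genes tested. The genes share the same 4 libraries, and the part of length in the shift was not tested. Cytosolic ribosomal protein genes had a median of -0.27, with 66 of 83 genes not overlapping on the lower side and 0 called.

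Mrps36 had 14.3 CPM in siPwp1 replicate 2, against 23.8 CPM in siPwp1 replicate 1, and 13.9 CPM in siControl replicate 2, against 37.4 CPM in siControl replicate 1. The log2 difference was -1.08 (SE 0.285, edgeR adjusted p = 0.0488, 2 pairs of libraries in the same direction). The call lay close to the threshold and was lost with replicate as the single term, where the adjusted p was 0.176. The reference annotation lists 3 pseudogenes built on the symbol Mrps36, Mrps36-ps1 to Mrps36-ps3. The expected counts of Mrps36 were whole numbers in all libraries, and whether reads of such copies entered them was not tested. Leaving out siControl replicate 1 turned the siPwp1 minus siControl log2 fold change of Mrps36 to 0.45, against -0.43 with all libraries.

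The genes next to Mrps36 stood just outside the threshold. Mrpl42 had 195.5 CPM in siPwp1 replicate 2, against 278.7 CPM in siPwp1 replicate 1, and 202.6 CPM in siControl replicate 2, against 319.0 CPM in siControl replicate 1, a log2 difference of -0.58 (edgeR adjusted p = 0.0570). Mrps34, a mitochondrial protein of the small subunit, had a log2 difference of -0.66, Mrps25 one of -0.64 and Mrpl14, with bacterial kin, one of -0.68, with edgeR adjusted p from 0.0574 to 0.0674. In each of these genes both replicate 2 libraries lay below both replicate 1 libraries. In the other direction Mrps6 had 247.9 CPM in siPwp1 replicate 2, against 193.3 CPM in siPwp1 replicate 1, and 258.8 CPM in siControl replicate 2, against 128.6 CPM in siControl replicate 1, a log2 difference of 0.68 (edgeR adjusted p = 0.0583). Mrpl15, which has bacterial kin, differed by 0.43, and Mrpl37, Mrpl44 and Mrps2 by 0.28 to 0.31, none of them past the threshold. Mrpl37 and Mrpl44 are mitochondrial proteins of the large subunit, and Mrpl44 has a fold related to RNase III.

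The replicate differences pointed the same way in both groups for 55 of the 77 genes, and Spearman's rho between the difference within siPwp1 and that within siControl was 0.53 across genes. The median difference was -0.23 log2 CPM within siPwp1 and -0.13 within siControl. Several lineage markers moved with the replicate number in the same libraries. Krt8 and Krt18, keratins of the trophectoderm, were lower in replicate 2 by log2 values of -3.04 and -3.22 (edgeR adjusted p = 5.47e-04 and 4.89e-04). Cdx2 and Gata3, transcription factors of the same lineage, were lower by -2.77 and -1.995 (edgeR adjusted p = 0.00453 and 0.00273). Tead4 and Tfap2c, from the same marker list, were higher by 0.33 and 0.12 and did not pass the threshold (edgeR adjusted p = 0.440 and 0.782). Klf17 was higher by 1.84 and the oocyte gene Zp3 by 1.94 (edgeR adjusted p = 0.00851 and 0.0124). Of the 11 markers of the morula and early lineages, 1 was called higher and 4 lower in replicate 2, against 3.92% and 2% of all genes tested. The 5 oocyte markers summed to 21.4 TPM in siPwp1 replicate 2, against 7.25 TPM in siPwp1 replicate 1, and to 15.7 TPM in siControl replicate 2, against 4.88 TPM in siControl replicate 1. Zp3 alone had 16.3 against 3.43 TPM in siPwp1 and 10.4 against 3.00 TPM in siControl. Nlrp5 differed between replicates by a log2 value of -0.13, and Gdf9, Bmp15 and Oosp1 by 0.55 to 1.08. None of these passed the threshold. The part of these markers in the replicate differences of the ribosomal genes was not tested.

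**Figure D4:**
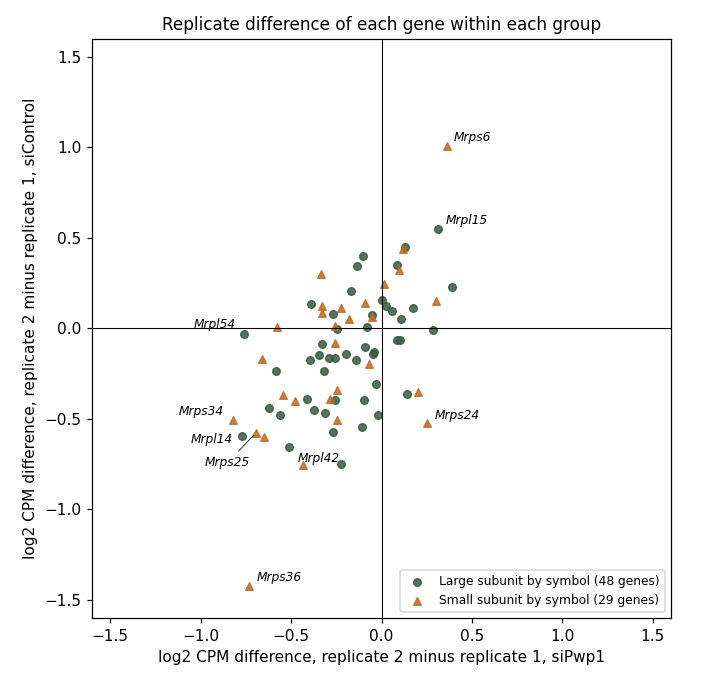
Difference of log2 CPM between replicate 2 and replicate 1 for each of the 77 genes, within siPwp1 on the horizontal axis and within siControl on the vertical axis, large subunit genes as circles and small subunit genes as triangles. Most points lie at the lower left, 55 of 77 have the same sign in both groups, and Mrps36 at the bottom and Mrps6 at the top lie farthest out.

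Differences between libraries were spread less widely across the family than across the tested genes within its range of level. The SD across the 77 genes of the log2 CPM difference between any 2 libraries was 0.187 to 0.374. Across 4758 tested genes in the same range of level it was 0.333 to 0.729, and in each of the 6 pairs of libraries it was larger than in the family. That range runs from the lowest to the highest gene of the family and was not matched gene by gene. A shift shared by all genes of a set does not enter this SD. The smallest SD of the family was between siPwp1 replicate 2 and siControl replicate 2, at 0.187, and the largest between siPwp1 replicate 2 and siControl replicate 1, at 0.374. The libraries of 1 group were therefore not closer to each other than libraries of different groups with the same replicate number.

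Other genes that build or serve the mitochondrial ribosome had 0 calls by edgeR between siPwp1 and siControl in each of 4 lists, and 0 at an unadjusted p under 0.05. Over all genes tested, 0% were called in either direction, and 1.84% higher and 0.824% lower were under the unadjusted threshold. Among 6 further ribosomal proteins outside the naming rule, 1 was separate on the higher and 1 on the lower side, where the background was 14.7% and 14.1%. The gene on the lower side was Dap3, a GTP-binding protein of the small subunit, with 22.6 and 13.0 TPM in siPwp1, against 22.7 and 24.9 TPM in siControl and a log2 fold change of -0.42. Chchd1, another small subunit protein, had 452 and 407 TPM in siPwp1, against 566 and 448 TPM in siControl. Among 26 assembly factors, 4 were separate on the higher side (15.4%) and 1 on the lower side (3.85%), near and below that background. Their median log2 fold change was -0.04. Mettl15, which methylates the small subunit RNA, had 7.12 and 5.44 TPM in siPwp1, against 3.77 and 3.44 TPM in siControl, a log2 fold change of 0.79 (unadjusted p = 0.102). Ybey, an RNase acting on ribosomal RNA, had 2.20 and 2.34 TPM in siPwp1, against 1.52 and 1.65 TPM in siControl. Neither passed the test.

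Among 16 factors of mitochondrial translation, 0 were separate on the higher and 6 (37.5%) on the lower side, against the backgrounds of 14.7% and 14.1% given above. Their median log2 fold change was -0.10. Mtrf1l, the release factor that ends mitochondrial translation, had 3.25 and 3.20 TPM in siPwp1, against 6.18 and 4.86 TPM in siControl, with a log2 fold change of -0.80 (unadjusted p = 0.0826). Guf1, a GTPase of translation elongation, had 3.03 and 2.82 TPM in siPwp1, against 4.84 and 3.98 TPM in siControl. Between replicates Slirp, which stabilizes mitochondrial messenger RNA, was called, lower in replicate 2 by a log2 value of -0.77 (edgeR adjusted p = 0.0357). Of all genes tested, 2% were called lower there. Slirp had 560 TPM in siPwp1 replicate 2, against 764 TPM in siPwp1 replicate 1, and 555 TPM in siControl replicate 2, against 1023 TPM in siControl replicate 1. Among 14 factors that transcribe, process or maintain mitochondrial DNA, 0 were separate on the higher and 2 (14.3%) on the lower side, against the same backgrounds of 14.7% and 14.1%. Ssbp1, which coats single-stranded mitochondrial DNA, had 244 and 255 TPM in siPwp1, against 322 and 330 TPM in siControl, a log2 fold change of -0.39 (unadjusted p = 0.129). Tfb2m, which opens mitochondrial promoters, had 48.0 and 76.8 TPM in siPwp1, against 34.1 and 56.7 TPM in siControl and overlapped between groups.

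In GENCODE release M21 on GRCm38, the 77 genes lie on 17 chromosomes, with 10 of them on chromosome 11. A protein-coding gene starts on the opposite strand within 1000 bases of the start for 33 of the 77 (42.9%), against 15.7% of 12564 tested protein-coding genes. Of the partners, 31 were tested, with 0 called between siPwp1 and siControl and 1, Ska3 beside Mrpl57, called between replicates. Over all genes tested, 0% were called between groups, and 3.92% higher and 2% lower between replicates. Several partners serve mitochondria too. Ndufs6, a subunit of respiratory complex I, starts 29 bases from Mrpl36, and Ptcd2, an RNA-binding protein of mitochondria, starts 81 bases from Mrps27. Sars2, the mitochondrial seryl-tRNA synthetase, starts 172 bases from Mrps12. These partners and the pair that follows were chosen for naming after their values were seen.

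Mrpl46 and Mrps11, whose promoter windows are printed above, are the pair in which both neighbours encode mitochondrial ribosomal proteins. In GENCODE they occupy chr7:78775236-78783531 on the minus strand and chr7:78783119-78792989 on the plus strand, and overlap at their 5′ ends. Mrpl46 had 167.5 and 197.5 TPM in siPwp1, against 169.8 and 199.1 TPM in siControl. Mrps11 had 69.1 and 46.0 TPM in siPwp1, against 68.2 and 48.6 TPM in siControl. Both genes kept nearly the same level in the groups, with log2 fold changes of -0.04 and -0.05. Between replicates they went opposite ways, Mrpl46 higher in both replicate 2 libraries by a log2 value of 0.15 (edgeR adjusted p = 0.689) and Mrps11 lower in both by -0.63 (edgeR adjusted p = 0.106). Neither difference passed the test. A gene on the other strand overlaps 35 of the 77 genes, and since the strand setting of the counting is not given, reads of such neighbours may not be told apart.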

How the data were processed

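RNA-seq tables of 4 libraries were used, 2 of siPwp1 and 2 of siControl, grouped by their titles. Reads were processed with STAR 2.7.10 and RSEM 1.3.3 on the mm10 build, per the submitters' processing notes; how reads were trimmed, which annotation was used and whether strand was kept is not given in the sources used here. The authors deposited RSEM expected counts per gene, not normalized, per the file headers. TPM come from the same deposited files, where the authors scaled each library to the same total. FPKM, also deposited by the authors, served only as an alternative for summed shares. Effective lengths are those in the deposited files. Expected counts were whole in all libraries for 73 of the 77 genes, the others being Mrpl19, Mrpl24, Mrpl41 and Mrps25.

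Rounded expected counts went into edgeR 4.0.16 (R 4.3.3, quasi-likelihood test) after filterByExpr (minimum count 10) and TMM scaling, over all 13585 genes kept. P-values are two-sided, Benjamini-Hochberg adjusted over all genes tested, with a threshold of 0.05. Group was the single term between siPwp1 and siControl, and the replicate term was tested with group in the model. CPM are scaled by TMM. The SE was derived as |log2 fold change| divided by the root of F, and 95% intervals use it with the total degrees of freedom of the fit. A gene was separate when both libraries of a group lay above, or both below, both of the other. Alternatives were no filter, a filter of 5 CPM in at least 2 libraries, the DESeq2 1.42.0 Wald test and its size factors alone, limma 3.58.1 on log2(TPM + 1) and log2(TPM + 0.1), the replicate block, each library left out, a threshold of 0.1, subunits by position, sums without the most abundant gene of each subunit, and, added after the data were seen, replicate as the single term. The tests were tried on simulated data.

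The genes, lists, motifs and rules were chosen with earlier results of these data known. Genes named were those with an unadjusted p under 0.05 between groups, the 5 separate genes per direction and subunit with the smallest p, the 5 highest and 5 lowest by mean TPM per subunit, those of known place or role, the 5 per direction with the smallest p between replicates, and 2 per further list with the smallest p. Mrpl58 is known in the tables as Ict1 and was counted with the further proteins; Mrp63 is an older symbol of Mrpl57. Twnk and Rcc1l were analysed under their older symbols Peo1 and Wbscr16. Listed genes whose symbol was not matched (Mrm2, Mrm3, Mtrfr, Mtres1 and Prorp) were not analysed here. Which proteins have bacterial kin is background knowledge.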

Additional observations from a re-analysis of the deposited data

How the results depend on the processing

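In the comparison of siPwp1 with siControl, 0 of the 77 genes were called in either direction under every alternative run, among them those that called other genes. Over all genes, edgeR called 0 higher and 0 lower, against 99 and 7 with no filter, 42 and 2 with DESeq2, 71 and 9 with the replicate block, and 5 to 130 higher and 1 to 18 lower when each library was left out. The replicate numbers pair the libraries by number only: same-numbered libraries deviated together with a correlation of 0.317 over all genes and 0.564 over the 77 genes, with 2 pairs and no label that ties a number to a shared day. The median log2 fold change ran from -0.206 to 0.005 over the family, from -0.137 to 0.036 over large subunit genes and from -0.27 to 0.003 over small subunit genes when each library was left out. Single genes were followed through these alternatives for 17 of those named: the separate genes with the smallest p per direction and subunit, and Mrps36. Of these 17 genes, 1 changed sign. Mrps36 ran from -0.972 to 0.453 when each library was left out, the highest value without siControl replicate 1. The other named genes were not followed in this way. Between replicates, the counts of the 77 genes moved more: 1 higher and 6 lower at a threshold of 0.1 or with no filter, 4 lower with the stricter filter, 1 higher with DESeq2 size factors, 1 higher and 5 lower with DESeq2, and 0 lower with replicate as the single term. Over all genes these counts were 947 and 586 at a threshold of 0.1, 941 and 630 with no filter, 417 lower with DESeq2, and 1 and 4 with replicate as the single term, against 533 and 272. No count over all genes is given here for the stricter filter, for DESeq2 size factors or for the higher side of DESeq2. The family counts there have no background beside them. The cause of these moves in the counts was not tested. Leaving out a library leaves 1 pair for the replicate difference, which gives values with no test: medians of -0.225 to -0.128 for the family and of -0.258 to -0.083 for small subunit genes. With 2 libraries a group, the exact permutation test of summed shares cannot pass 0.05, and intervals cover the spread of these 4 libraries only.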
